A study of Danio rerio with 4 samples.

Results

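The genes described here are cathepsins of the zebrafish, chosen by symbol from the 32379 gene identifiers of the count files. The 10 symbols were ctss2.1, ctss2.2, ctsba, ctsd, ctsk, ctsh, ctsla, ctsc, ctsz and ctsa. Of these, 8 had a row in the count files, among them ctsba under the human-style symbol CTSB. The identifiers found for ctsc, which encodes a dipeptidyl peptidase, and ctsa, which encodes a serine carboxypeptidase, matched no row, so both genes were not analysed here. All 8 with a row passed the filter on low counts, and each had at least 31 counts in every library, so none was kept through the counts of 1 group.

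Cathepsins are proteases that degrade proteins, most of them in lysosomes. They are made as inactive proenzymes, carried to the lysosome largely by receptors for mannose 6-phosphate, and activated by acid and by other proteases. Most are cysteine proteases of the papain family, whereas cathepsin D is an aspartic protease, and in mammals cathepsin S is known from antigen-presenting cells and cathepsin K from osteoclasts.

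RNA was sequenced from whole zebrafish embryos of the AB strain, injected as 1-cell eggs with 3 ng of either a control morpholino or one against the splicing factor gene srsf5a, and raised to 48 hours post fertilization. Each group had 2 libraries, named replicates 1 and 2 after the titles, from pools of 80 embryos per condition. It is not stated that libraries of 1 group were made from different pools, so p-values measure the spread between libraries, which may be technical. All embryos were sorted by a rhodamine dextran tracer, and no uninjected embryos are among the samples. Libraries held from 15139525 to 36240893 reads assigned to genes, with both of these extremes among the controls. Levels are given as CPM, the share of assigned reads on a fixed scale of library size, scaled between libraries, and are compared only within a gene because they are not corrected for transcript length. Fold changes are given as log2 of srsf5a morpholino over control with a standard error (SE), and a gene was called at a Benjamini-Hochberg adjusted p under 0.05 in edgeR's quasi-likelihood test over 19917 genes. The targeted gene had 335 and 286 CPM in control libraries and 335 and 368 CPM after its morpholino (log2 fold change 0.18 ± 0.11), but a total count does not measure a block of splicing and so does not check the labels.

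Cathepsin S gene ctss2.1 rose 4.02-fold with the srsf5a morpholino and was the only one of the 8 cathepsins to pass the test. The levels of 6 others lay above both controls without passing it, with log2 fold changes from 0.23 for ctsz to 1.37 for ctsh, and ctss2.2 lay below both controls. The called share was 1 of 8 higher and 0 of 8 lower, beside 1.22% of all tested genes called higher and 0.768% called lower. At an unadjusted p under 0.05, 6 of the 8 were higher, beside 10.5% of all tested genes, and 0 were lower in edgeR, beside 10.1%. In DESeq2's Wald test 4 were higher, namely ctss2.1, ctsd, ctsh and ctsla, beside 2.84% of genes, and 0 were lower, beside 2.65%. ctss2.1 and ctsla were called with a filter of 1 CPM in 2 libraries (1.72% of genes higher) and without control replicate 1 (0.648%). Leaving out control replicate 2 left no call among the 8 (0.152%), whereas 4 were called when srsf5a-morpholino replicate 1 was left out (3.11%) and 3 when replicate 2 of that group was (3.42%). The median log2 fold change of the 8 was 0.47, and that of all tested genes was 0.00026. In 7 of the 8, both srsf5a-morpholino libraries lay above both controls, as they did in 26.1% of all tested genes, and in 1 both lay below, as in 26.3%. The 8 were chosen with earlier results of these data known, so their shares are a description. Of 5 other listed cathepsins, 0 lay above both controls and 2 below. The samples are whole embryos, in which more cells of a type and more RNA per cell cannot be told apart.

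**Figure D1:**
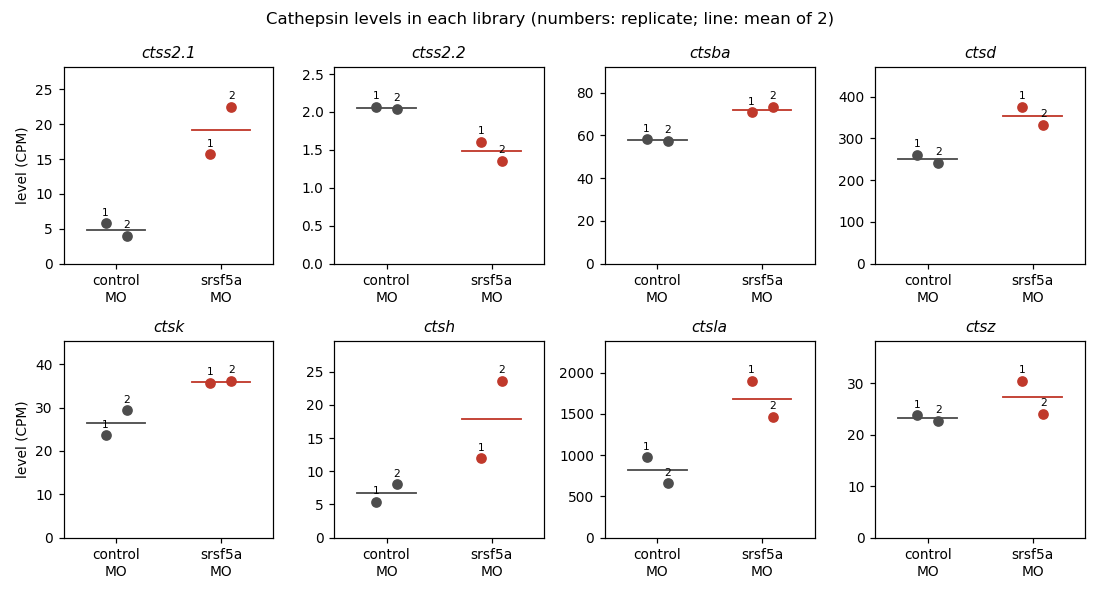
Level of each of the 8 cathepsin genes in CPM, on a linear axis from 0, in 2 control-morpholino (MO) libraries (grey) and 2 srsf5a-morpholino libraries (red), with the replicate number beside each point and a line at the mean. The srsf5a-morpholino libraries lie above both controls for every gene except ctss2.2, where they lie below.

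ctss2.1 (ENSDARG00000074656) encodes a cathepsin S, a cysteine protease that in mammals cleaves the invariant chain of class II antigen-presenting molecules. Its level was 5.81 and 3.98 CPM in control replicates 1 and 2 and 15.7 and 22.5 CPM in srsf5a-morpholino replicates 1 and 2, from 87, 146, 362 and 530 counts. Both srsf5a-morpholino libraries stood far above both controls, and the libraries of each group differed by less than the groups did. This gave a log2 fold change of 2.01 ± 0.24 (SE), a 4.02-fold rise with an adjusted p of 0.0189 in edgeR. The call ended without control replicate 2, at 1.72 with an adjusted p of 0.0775, and the adjusted p ranged from 3.34e-10 to 0.0775 over all alternatives.

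ctss2.2 (ENSDARG00000013771), another cathepsin S gene, was not higher. It had 2.07 and 2.04 CPM in control embryos, against 1.60 and 1.36 CPM in srsf5a-morpholino libraries. The groups did not overlap, but with 31 to 75 counts a library the log2 fold change of -0.47 ± 0.28 had a 95% interval from -1.12 to 0.18 (adjusted p = 0.389 in edgeR). The ratio of ctss2.1 to ctss2.2 counts was 2.81 and 1.95 in control libraries, against 9.78 and 16.6 after the srsf5a morpholino. That ratio was higher in both srsf5a-morpholino libraries, by 2.45 on the log2 scale. A two-sided exact permutation test gave p = 0.333, the smallest p that 2 libraries against 2 allow. With ctss2.1 above both controls and ctss2.2 below both, the ratio had to separate the groups. The test therefore adds nothing to the fold changes of the 2 genes. In the RefSeq gene table of the assembly GRCz12tu, ctsk, ctss2.1 and ctss2.2 are neighbours with no other protein-coding gene between them. The third cathepsin S gene in the files, ctss1 (ENSDARG00000036940), had 1.13 and 1.06 CPM in control libraries, against 0.78 and 0.81 CPM after the srsf5a morpholino. Its log2 fold change of -0.46 ± 0.35 did not pass (adjusted p = 0.512 in edgeR).

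ctsk (ENSDARG00000040251) encodes cathepsin K, which in mammals degrades collagen in bone. It had 23.6 and 29.3 CPM in control embryos, against 35.7 and 36.2 CPM in srsf5a-morpholino libraries. The srsf5a-morpholino libraries were close to each other and above both controls, and the controls differed more. The log2 fold change was 0.43 ± 0.13 (adjusted p = 0.127 in edgeR), with a 95% interval from 0.13 to 0.74. The 3 neighbouring genes therefore had log2 fold changes of 0.43, 2.01 and -0.47 in their order along the chromosome. Of 8 tested osteoclast marker rows, none passed in edgeR or DESeq2. At an unadjusted p under 0.05, 2 were higher and 0 lower, beside 10.5% and 10.1% of all tested genes. Those 8 rows summed to 434 and 448 CPM in control libraries, against 460 and 524 CPM after the srsf5a morpholino. None was at 0 in all libraries. In that sum ca2 had 243 and 263 CPM in control libraries, against 229 and 257 CPM after the srsf5a morpholino. The MMP14 rows in it had log2 fold changes of 0.04 (ENSDARG00000002235) and 0.06 (ENSDARG00000008388). The part of osteoclasts in the ctsk values was not tested. Among the osteoclast rows, ACP5 is an acid phosphatase gene chosen here after its values had been seen. It had 21.4 and 27.3 CPM in control embryos, against 48.9 and 111 CPM in srsf5a-morpholino libraries (1.70 ± 0.35, adjusted p = 0.0587 in edgeR). ACP5 passed when srsf5a-morpholino replicate 1 (2.18, adjusted p = 1.44e-06) or replicate 2 of that group (0.99, adjusted p = 0.00183) was left out, and its highest adjusted p over all alternatives was 0.147.

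The cathepsin L gene ctsla (ENSDARG00000007836), an endopeptidase gene, supplied most reads of the set. It had 973 and 659 CPM in control libraries, against 1902 and 1464 CPM after the srsf5a morpholino. The groups did not overlap, although control replicate 1 was 1.48 times control replicate 2. The log2 fold change of 1.05 ± 0.21, or 2.06-fold, had a 95% interval from 0.56 to 1.53 and missed the threshold in edgeR with an adjusted p of 0.0524. It passed in DESeq2 (adjusted p = 0.0348), with a filter of 1 CPM in 2 libraries (0.0489), and when control replicate 1 (0.0287), srsf5a-morpholino replicate 1 (0.0114) or replicate 2 of that group (0.000902) was left out. Without control replicate 2 it was 0.79, with an adjusted p of 0.197, the highest over all alternatives. Of the reads assigned to the 8 genes, not corrected for length, ctsla took 72.0% and 64.4% in control libraries, against 77.8% and 74.0% after the srsf5a morpholino. Reads of the other 7 summed to 379 and 364 CPM in control libraries, against 542 and 513 CPM after the srsf5a morpholino.

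Of the other listed genes of the cathepsin L group, neither passed the test. ctsl.1 (ENSDARG00000003902) had 5.27 and 3.41 CPM in control embryos, against 7.07 and 5.26 CPM in srsf5a-morpholino libraries, and the groups overlapped (0.54 ± 0.27, adjusted p = 0.311 in edgeR). ctslb (ENSDARG00000074306), a cathepsin L gene of the zebrafish hatching gland, had 38.8 and 16.5 CPM in control libraries, against 27.4 and 30.5 CPM after the srsf5a morpholino. Both srsf5a-morpholino libraries lay between the controls, which differed 2.35-fold, and the log2 fold change was 0.09 ± 0.34 (adjusted p = 0.907 in edgeR). It turned to -0.43 without control replicate 2. The hatching enzyme gene he1.1 also differed 2.04-fold between the controls, with 467 and 229 CPM, against 389 and 519 CPM after the srsf5a morpholino. Of 7 tested hatching gland marker rows none passed in edgeR, and 1 was higher in DESeq2, beside 2.84% of genes. At an unadjusted p under 0.05, 2 were higher and 0 lower, beside 10.5% and 10.1% of all tested genes. The hatching gland rows summed to 831 and 546 CPM in control embryos, against 755 and 901 CPM in srsf5a-morpholino libraries. In that sum XBP1 had 262 and 246 CPM in control embryos, against 265 and 264 CPM in srsf5a-morpholino libraries. The part of hatching gland cells in the ctslb values was not tested.

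A further cathepsin L gene, ctsll (ENSDARG00000011701), belonged to none of the lists and is named because of its values. Its levels were lower after the srsf5a morpholino, with 14.6 and 17.5 CPM in control libraries, against 7.50 and 10.6 CPM after the srsf5a morpholino, so that both srsf5a-morpholino libraries lay below both controls. The log2 fold change of -0.83 ± 0.19 did not pass in edgeR (adjusted p = 0.0783), and it passed in DESeq2 (adjusted p = 0.0193) and without srsf5a-morpholino replicate 2 (-1.11, adjusted p = 0.00362). Over all alternatives its highest adjusted p was 0.305. Reads with several alignments were not assigned to genes, so values of close copies in this group are uncertain.

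**Figure D2:**
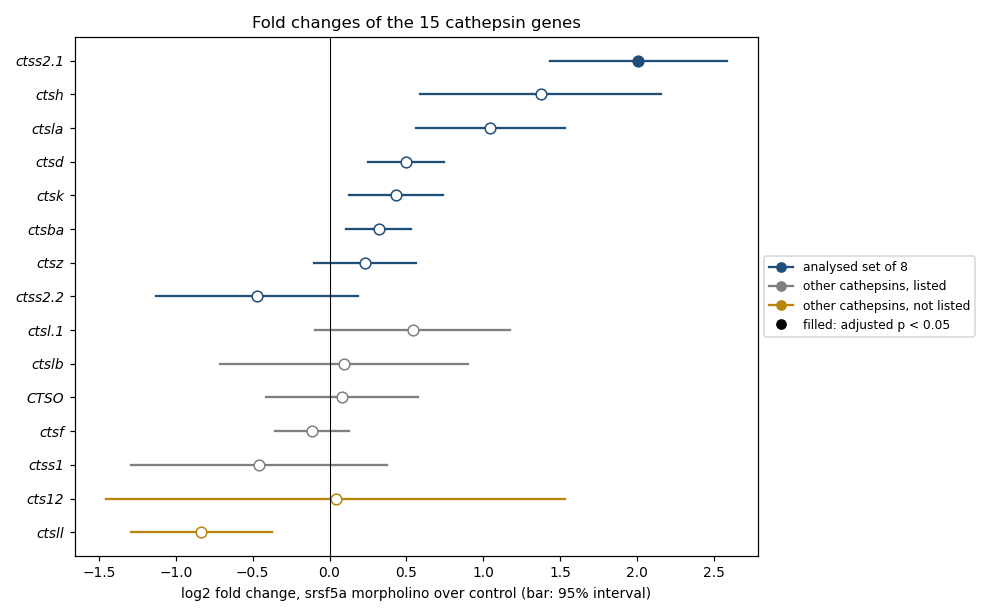
Log2 fold change, srsf5a morpholino over control, of all 15 cathepsin genes with a row, with 95% intervals from edgeR. The filled point, ctss2.1 at 2.01, passed the test, and ctsll at -0.83 has the lowest value.

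The aspartic protease gene ctsd (ENSDARG00000057698), whose product degrades proteins and processes other lysosomal proenzymes, had 260 and 241 CPM in control embryos, against 376 and 332 CPM in srsf5a-morpholino libraries. The groups lay apart, with libraries of a group within 1.13-fold of each other. In log2 this was a fold change of 0.50 ± 0.10, with a 95% interval from 0.25 to 0.75 and an adjusted p of 0.0622 in edgeR. It passed in DESeq2 (adjusted p = 0.00192) and without srsf5a-morpholino replicate 1 (0.0396) or 2 (0.00540), and its highest adjusted p, without control replicate 2, was 0.316.

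ctsba (ENSDARG00000055120) encodes cathepsin B, which cuts both within proteins and from their carboxyl end. Replicates agreed closely, with coefficients of variation of 1.07% and 2.64%, at 58.2 and 57.3 CPM in control libraries, against 70.7 and 73.4 CPM after the srsf5a morpholino. The difference was small and the groups did not overlap. Its log2 fold change of 0.32 ± 0.09 had a 95% interval from 0.11 to 0.53, and its adjusted p was 0.114 in edgeR.

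The exopeptidase genes ctsh and ctsz differed in their spread. ctsh (ENSDARG00000041108), which encodes an aminopeptidase, had 5.41 and 8.04 CPM in control embryos, against 11.96 and 23.6 CPM in srsf5a-morpholino libraries. Replicate 2 was the higher one in both groups, with replicate 1 at 0.673 of its level in the controls and at 0.506 of it after the srsf5a morpholino. On the log2 scale it was 1.37 ± 0.33 higher (adjusted p = 0.0827 in edgeR), with a 95% interval from 0.59 to 2.15. It was 0.79 without srsf5a-morpholino replicate 2 (adjusted p = 0.0585) and 1.77 without srsf5a-morpholino replicate 1, where it passed (adjusted p = 0.000253). DESeq2 also called it (adjusted p = 0.000859), and its highest adjusted p over all alternatives was 0.178. ctsz (ENSDARG00000043081), which encodes a carboxypeptidase, had 23.8 and 22.7 CPM in control libraries, against 30.6 and 24.1 CPM after the srsf5a morpholino. Replicate 2 of the srsf5a morpholino lay close to the controls. The log2 fold change of 0.23 ± 0.14 had a 95% interval from -0.10 to 0.56 (adjusted p = 0.401 in edgeR), and it was 0.05 without srsf5a-morpholino replicate 1.

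**Figure D3:**
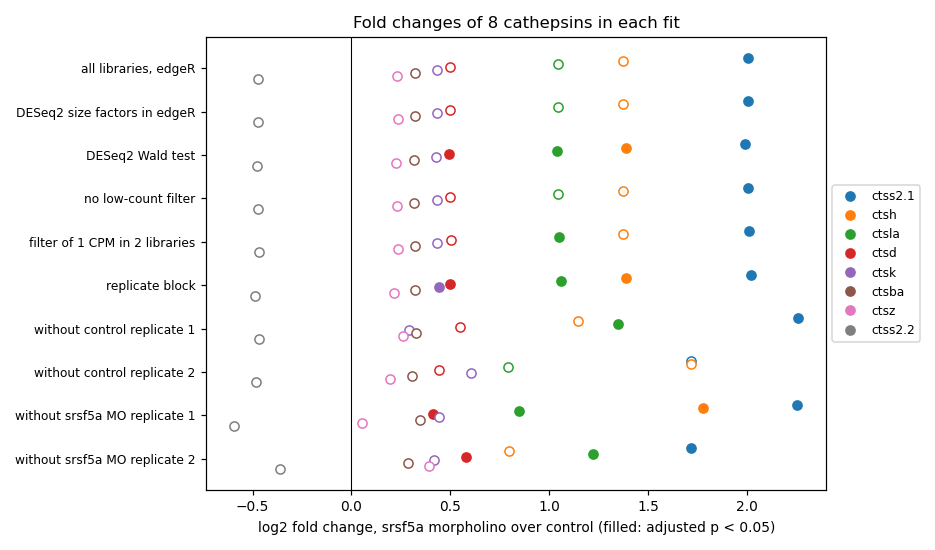
Log2 fold change of the 8 cathepsin genes (colours) in the fit reported here and in 9 alternatives (rows), with filled points at an adjusted p under 0.05. ctss2.1 is filled in every row but the one without control replicate 2, where it is at 1.72, and 7 of the 8 lie above 0 in each row.

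The remaining listed cathepsins, ctsf and CTSO, are cysteine protease genes and were close to 0. ctsf (ENSDARG00000063095) had 94.8 and 93.1 CPM in control embryos, against 92.7 and 80.8 CPM in srsf5a-morpholino libraries (-0.11 ± 0.10, adjusted p = 0.579 in edgeR). CTSO (ENSDARG00000052855) had 3.54 and 3.92 CPM in control libraries, against 3.68 and 4.24 CPM after the srsf5a morpholino (0.08 ± 0.21, adjusted p = 0.870), and turned to -0.03 without srsf5a-morpholino replicate 2. With 95% intervals from -0.36 to 0.13 and from -0.41 to 0.57, neither gene was shown to be equal between the groups. Of the 5 other listed cathepsins with a row, none passed in edgeR or DESeq2, and none had an unadjusted p under 0.05. Their median log2 fold change was 0.08, and it ran from -0.13 to 0.18 when 1 library was left out. The gene cts12 (ENSDARG00000042753), in no list, had only 5 to 17 counts a library and a log2 fold change of 0.04 ± 0.63, whose sign changed between fits.

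The authors' deposited table gave the same 4 of the 8 genes as DESeq2 here an adjusted p under 0.05, beside 3.14% of its genes called higher. In the authors' deposited table the log2 fold changes were 1.43 for ctss2.1, 0.90 for ctsh, 0.67 for ctsla and 0.46 for ctsd. The version of DESeq2 behind them is not stated, so their sizes are not compared with those from edgeR here. For ctsba, ctsk and ctsz the authors' deposited table had 0.29, 0.37 and 0.19, none of them past the threshold. The adjusted p of ctss2.2 is blank there. The authors' deposited table also gave ctsll an adjusted p of 0.0180, at -0.64, beside 2.99% of its genes called lower.

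Genes that act on cathepsins or carry them gave no call in edgeR with all libraries and group as the only term. Of 7 inhibitor and activator genes none passed in edgeR or DESeq2. At an unadjusted p under 0.05, 3 were higher and 0 lower, beside 10.5% and 10.1% of all tested genes. The median of the 7 was 0.32. That median was 0.024 when control replicate 2 was left out, the lowest of its alternatives. LGMN, which encodes the asparaginyl protease legumain, a processing enzyme of cathepsin proforms, had 84.0 and 66.6 CPM in control embryos, against 108 and 86.9 CPM in srsf5a-morpholino libraries (0.38 ± 0.15, adjusted p = 0.219 in edgeR). The log2 fold change of LGMN ran from 0.21 to 0.55 when 1 library was left out. cst3, which encodes the inhibitor cystatin C, had 60.2 and 55.5 CPM in control libraries, against 51.8 and 51.1 CPM after the srsf5a morpholino (-0.17 ± 0.10, adjusted p = 0.376). Of 14 genes that sort acid hydrolases, such as those for mannose 6-phosphate receptors and clathrin, none passed in edgeR or DESeq2. At an unadjusted p under 0.05, 0 were higher and 1 lower, beside 10.5% and 10.1% of all tested genes. The median of the 14 was 0.01. The retromer gene VPS35 was at 0.07 and the clathrin heavy chain gene cltca at 0.0025.

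Among other lysosomal hydrolases and their activators, 1 of 32 tested rows was called higher and 0 lower in edgeR. The shares over all tested genes were 1.22% and 0.768%. DESeq2 called 2 of these rows higher and 0 lower, beside 2.84% and 2.65% of genes. At an unadjusted p under 0.05, 7 were higher and 0 lower, beside 10.5% and 10.1% of all tested genes. In all, 25 lay above 0, where 50.1% of all tested genes did. The median was 0.14, and it ran from 0.11 to 0.20 when 1 library was left out. The call was PSAP, which encodes prosaposin, the precursor of the saposins that help lysosomal enzymes degrade sphingolipids. PSAP had 609 and 511 CPM in control embryos, against 957 and 1017 CPM in srsf5a-morpholino libraries. Its log2 fold change was 0.82 ± 0.12 (adjusted p = 0.0277 in edgeR), and its call ended without control replicate 2 (0.70, adjusted p = 0.170, the highest over its alternatives). Without PSAP the list summed to 665 and 662 CPM in control embryos, against 745 and 755 CPM in srsf5a-morpholino libraries. Of 34 genes of the lysosomal membrane and its proton pump none passed in edgeR. A filter of 1 CPM in 2 libraries gave 1 call, higher, beside 1.72% of genes. At an unadjusted p under 0.05, 5 were higher and 2 lower, beside 10.5% and 10.1% of all tested genes. DESeq2 called 2 of the 34 higher and 1 lower, beside 2.84% and 2.65% of genes. The median of the 34 was 0.02, and it ran from -0.019 to 0.041 when 1 library was left out. The 2 rows of the proton pump gene ATP6V0C were at 0.24 (ENSDARG00000057853) and -0.28 (ENSDARG00000036577). Those of ATP6V1B2 were at 0.02 (ENSDARG00000013443) and -0.18 (ENSDARG00000043465). None of 4 rows for lysosome transcription factors passed in edgeR or DESeq2, or at an unadjusted p under 0.05, with TFEB, a regulator of lysosomal genes, at 0.29 ± 0.15.

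Cathepsin S is known in mammals from leukocytes, so leukocyte markers were read beside ctss2.1. Of 18 tested macrophage marker rows none passed in edgeR, and DESeq2 called 1 higher, beside 2.84% of genes. The listed markers mpeg1.1, mpeg1.2, csf1ra, grn1 and grn2 had no row, so macrophages were read without them. At an unadjusted p under 0.05, 3 were higher and 1 lower, beside 10.5% and 10.1% of all tested genes. The median of the 18 rows was -0.04. That median ran from -0.014 to 0.15 when 1 library was left out. Their level summed over 25 rows was 1209 and 1352 CPM in control libraries, against 1310 and 1907 CPM after the srsf5a morpholino. Without apoeb, an apolipoprotein gene that yolk-lining tissue also expresses, it was 131 and 125 CPM in control embryos, against 123 and 129 CPM in srsf5a-morpholino libraries. Much of that remainder came from cd68, with 66.8 and 66.2 CPM in control embryos, against 55.5 and 69.2 CPM in srsf5a-morpholino libraries. apoeb itself was at 0.36 ± 0.19 (adjusted p = 0.332 in edgeR), and ran from 0.037 to 0.63 when 1 library was left out. The macrophage gene cd68 was at -0.09, and c1qc had 0 counts in every library, which allows up to 0.0817 to 0.200 CPM, a limit for counting error only. Of 10 neutrophil marker rows, 1 was called higher and 0 lower in edgeR, beside 1.22% and 0.768% of all tested genes. It was CEBPB, a transcription factor gene (0.83 ± 0.15, adjusted p = 0.0425 in edgeR). DESeq2 called 4 of the 10 higher and 0 lower, beside 2.84% and 2.65% of genes. At an unadjusted p under 0.05, 6 of the 10 were higher and 0 lower, beside 10.5% and 10.1%. All 10 lay above 0, beside 50.1% of all tested genes. Calls in the list numbered 2 with the filter of 1 CPM in 2 libraries, beside 1.72% of genes called higher. Without control replicate 2 CEBPB was at 0.68 with an adjusted p of 0.194, its highest over the alternatives, and it was no longer called. The neutrophil rows had a median of 0.48, which ran from 0.48 to 0.57 when 1 library was left out. They summed to 149 and 131 CPM in control libraries, against 239 and 212 CPM after the srsf5a morpholino. In that sum lyz had 50.3 and 44.2 CPM in control libraries, against 64.8 and 75.4 CPM after the srsf5a morpholino. mmp13a had 3.87 and 3.46 CPM in control libraries, against 39.8 and 10.1 CPM, so its srsf5a-morpholino replicates differed widely. None of the neutrophil rows was at 0 in all libraries. No row was found for mpx, lect2l, cxcr2, cpa5 and cebpe of that list. The part of neutrophils in the rise of ctss2.1 was not tested. Of 5 tested antigen presentation genes none passed in edgeR or DESeq2, or at an unadjusted p under 0.05. Their median was 0.55, and 4 of the 5 lay above 0, beside 50.1% of all tested genes. In none did both srsf5a-morpholino libraries lie above both controls, as they did in 26.1% of all tested genes. The median ran from 0.095 without srsf5a-morpholino replicate 1 to 0.78 without replicate 2 of that group. b2m, which encodes the light chain of class I antigen-presenting molecules, had 2.34 and 1.47 CPM in control libraries, against 6.42 and 1.87 CPM after the srsf5a morpholino (1.17 ± 0.56, adjusted p = 0.293 in edgeR). srsf5a-morpholino replicate 1 alone was high, and b2m was called when replicate 2 was left out (1.81, adjusted p = 0.00531) and was at 0.027 when replicate 1 was. The invariant chain genes cd74a and cd74b were too low to test, at 1 to 10 counts a library. cd74a had 0.134 and 0.109 CPM in control libraries, against 0.433 and 0.170 CPM after the srsf5a morpholino. cd74b had 0.067 and 0.082 CPM in control libraries, against 0.217 and 0.212 CPM after the srsf5a morpholino. Both genes thus lay above both controls, at counts too low for a test.

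**Figure D4:**
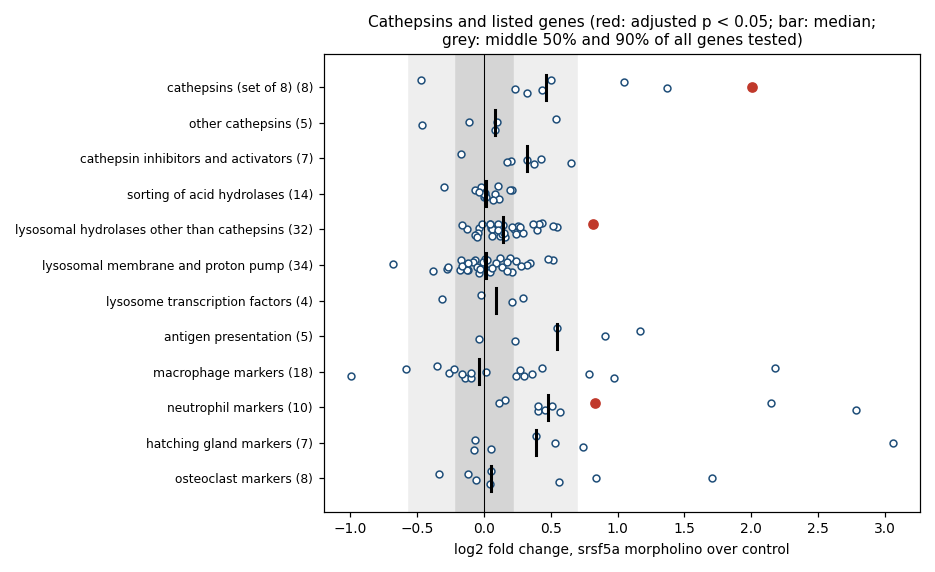
Log2 fold change of each tested gene in the set of 8 cathepsins and in the other lists (number of genes in brackets), with red points at an adjusted p under 0.05 in edgeR, a bar at each median, and grey bands for the middle 50% and 90% of all tested genes. The red points are ctss2.1, PSAP and CEBPB, and the highest medians are 0.55 for antigen presentation, 0.48 for the neutrophil markers and 0.47 for the 8 cathepsins.

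Across the 4 libraries, 5 named genes had a profile of log2 CPM, centred on its mean, closest to that of ctss2.1. By the root mean square difference these were oc90 (0.18), OIT3 (0.18), ACER1 (0.18), HSPA8 (ENSDARG00000037403, 0.18) and hspa1b (0.20), in log2 units. oc90, a gene of the otolith matrix, had 3.74 and 2.45 CPM in control libraries, against 12.01 and 19.1 CPM after the srsf5a morpholino. ACER1, a ceramidase gene, had 3.80 and 2.67 CPM in control embryos, against 10.4 and 11.2 CPM in srsf5a-morpholino libraries. OIT3 had only 5 and 8 counts in control libraries, against 18 and 29 after the srsf5a morpholino, so its profile is uncertain. All but OIT3 were called higher in edgeR, with adjusted p from 0.0149 to 0.0356. Without control replicate 2 the calls of oc90 (2.05, adjusted p = 0.0780), ACER1 (1.501, adjusted p = 0.0780) and HSPA8 (1.28, adjusted p = 0.115) ended, and these were their highest adjusted p over the alternatives. The heat shock genes HSPA8 and hspa1b have close copies, so their separate values are uncertain. Likeness over 4 libraries rests mainly on the difference between the groups and is a description.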

How the data were processed

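Whole-embryo RNA was measured in 4 libraries, 2 per group, grouped by their titles. The submitters' processing notes name the Zv9 build and the tools TopHat, HTSeq, Picard and DESeq2, without versions, annotation release or strand setting. Each deposited sample file gives raw read counts, as whole numbers, per Ensembl gene. A deposited table of the authors' own comparison gives, per the file headers, p-values, log2 fold changes with their errors, a score per gene (Wald) and a signal per gene (mean normalized count). These were only set beside the values computed here.

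Summary totals were left out of library sizes and tests. Reads in genes made up 53.0% to 57.1% of listed reads, and reads with several alignments 29.0% to 34.2%. The tests used edgeR 4.0.16 under R 4.3.3 (TMM factors 0.984 to 1.01, filterByExpr with minimum count 10 and minimum total 15, quasi-likelihood test, group as the only term), which left 19917 of 25062 genes with counts. SEs and 95% intervals come from that fit. The common biological coefficient of variation was 12.9%. Counts within a group varied beyond sampling noise (chi-square over its degrees of freedom 8.72 for the controls, 13.5 for the srsf5a morpholino), so no library was treated as a repeat deposit of another; this does not show that they are separate biological samples. Alternatives were DESeq2 1.42.0 with its own size factors, those size factors in edgeR, other filters, a replicate block and leaving out each library.

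Symbols came from a supplied table that names 20603 identifiers. Of 192 symbols in 11 other lists, 146 had a row, and a human-style symbol can name several rows. The cathepsins, lists and tests were chosen with earlier results of these data known. The rule for named genes takes all cathepsins of the set and of the list of others, srsf5a, and 5 genes most like ctss2.1, for which clone-type placeholder names were passed over. From each other list it takes up to 3 calls of lowest p or, with no call, up to 2 genes of highest mean CPM.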

Additional observations from a re-analysis of the deposited data

How the results depend on the processing

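The cathepsin calls depended on the test and the libraries. Of the 8 cathepsins, 1 was called with edgeR, 4 with DESeq2, 2 with a filter of 1 CPM in 2 libraries, and 0 to 4 when 1 library was left out, the lowest without control replicate 2. Their median log2 fold change stayed between 0.43 and 0.52 without 1 library, and 7 of 8 lay above 0 in each of the 9 alternatives. Over all genes 395 were called with edgeR, 956 with DESeq2, and 33 to 1408 when 1 library was left out, the lowest without control replicate 2 and the highest without srsf5a-morpholino replicate 2. The replicate numbers of the titles are shared by both groups, but nothing in the labels says that they pair the samples, and with 2 pairs the data cannot settle it. Same-numbered libraries deviated together (correlation 0.46 across genes), and with the replicate block 1582 genes and 5 of the 8 cathepsins were called, the fifth being ctsk. Over all 19917 tested genes the block called 865 higher and 717 lower. It also called 1 of 7 inhibitor or activator genes, 4 of 32 other lysosomal hydrolase rows and 2 of 18 macrophage rows higher. Of 34 lysosomal membrane genes it called 2 higher and 1 lower. With 1 library in an arm, that library is assumed to vary like the others.

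Some values of genes that were not called changed sign. DESeq2 put cltca at -0.0021, and the replicate block put cts12 at -0.13. When 1 library was left out, the log2 fold change ranged from -0.031 to 0.18 for CTSO and from -0.43 to 0.81 for ctslb. The range was -0.046 to 0.048 for cltca, -0.012 to 0.054 for ATP6V1B2 (ENSDARG00000013443) and -0.27 to 0.19 for MITF (ENSDARG00000003732). For b2ml it was -0.12 to 0.035, for cd68 -0.26 to 0.060, and for he1.1 -0.041 to 0.98 (0.39 with all libraries). For ca2 it was -0.15 to 0.026, for MMP14 (ENSDARG00000008388) -0.086 to 0.19, and for cts12 -1.03 to 0.65. The cause was not tested. Depth limits the lowest genes: 3 counts, the most that a count of 0 allows, correspond to between 0.0817 and 0.200 CPM.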
